A study of Mus musculus with 6 samples.

Results

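The transcripts of 46 genes that act at DNA replication origins and forks were examined in control and AMD3100-treated eSMGs (embryonic submandibular glands, the developing salivary glands of the lower jaw). The genes were taken from a given list of symbols covering origin licensing, origin firing, the replicative polymerases, the sliding clamp and its loader, single-strand binding, Okazaki fragment processing and deoxynucleotide supply, and all 46 were found among the 23260 genes of the count files. The glands came from ICR mouse embryos at embryonic day 14 and were cultured for 6 h with or without 50 µM AMD3100, an antagonist of the chemokine receptor CXCR4. Each of the 3 control and 3 AMD3100 libraries was made from 1 tube holding up to 10 whole glands, so that epithelium, mesenchyme and other cells were read together, and fewer cells of a type cannot be told apart from less RNA per cell. The labels do not say whether the tubes of a group came from separate litters, so the p-values measure only the spread between these tubes.

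Replication starts when the origin recognition complex, with CDC6 and CDT1, loads the MCM helicase onto DNA, a step called licensing that geminin blocks outside its time window. The kinase CDC7 with its partner DBF4, then CDC45 and the GINS complex, turn the loaded helicase into a moving one, and polymerase alpha with primase, polymerase delta and polymerase epsilon copy both strands behind it. Many of these genes are transcribed when cells enter S phase, which makes their RNA a common readout of proliferation, and the end buds of the early gland hold many dividing cells.

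Library totals lay between 9051595 and 14393031 counts. Levels are given as CPM (counts scaled to a common library total) after TMM scaling, and since the kit reads only the 3′ end of each transcript they were not divided by length and are compared here between libraries, not between genes. A gene with 3 counts, the lowest level taken as measurable, stood at 0.173 to 0.368 CPM, a limit that covers counting error only. Epithelial and mesenchymal markers were present in every library, each of the 10 genes of either list with more than 3 counts. Both replicate 3 libraries stood apart from the others in cell type markers. The summed level of 8 skeletal muscle genes was 1514 CPM in control replicate 3 and 2030 CPM in AMD3100 replicate 3, against 163 to 299 CPM elsewhere, and the 10 mesenchymal genes summed to 2106 and 1795 CPM there, against 4356 to 4424 CPM elsewhere. The 10 epithelial genes, led by Krt15, summed to 2236, 2243 and 1492 CPM in control and to 2689, 2343 and 3473 CPM in AMD3100-treated eSMGs, with 7 of the 10 higher and none past both thresholds. Much of these sums was Krt15, at 1042, 1012 and 888 CPM in control and at 1367, 1016 and 2472 CPM in AMD3100-treated eSMGs. Cdh1 was the 1 epithelial gene whose groups did not overlap (background 3.28% higher). It was at 337, 302 and 211 CPM in control and at 344, 394 and 507 CPM in AMD3100-treated eSMGs. Osr1 was the 1 such mesenchymal gene (background 4.17% lower), at 184, 172 and 170 CPM against 148, 140 and 161 CPM. Their log2 fold changes were 0.55 and -0.23. The study used both to check epithelium and mesenchyme that it had separated. With the replicate block described below, 3 of the 65 markers tested passed both thresholds (background 4.39% of all genes), namely Krt15 (log2 fold change 0.62, edgeR adjusted p = 0.703, unadjusted p = 0.024), the mesenchymal Twist1 (-0.97, unadjusted p = 0.0193) and the muscle gene Myog (-1.16, unadjusted p = 0.00442). Of the muscle genes, 6 of 8 were higher in AMD3100. Myog had the most counts of them in both replicate 3 libraries and Actc1 in the other 4, and Ckm was at 0 in some libraries. Col3a1 led the mesenchymal genes, of which 3 of 10 were higher, and no gene of the mesenchymal or epithelial list was at 0. Of the 12 erythroid genes, led by Hba-a1, 11 were lower and 1 higher, none past both thresholds in either fit. They summed to 9582, 24800 and 16790 CPM in control and to 9129, 14570 and 16240 CPM in AMD3100-treated eSMGs, lower in all 3 pairs with overlapping groups. Among the lower genes, Hbb-b1 and Hbb-bs had nearly the same counts in each library, as did Hbb-b2 and Hbb-bt. The tally and the sums therefore hold these values in duplicate. Of the 6 endothelial genes tested, 5 were lower and 1 higher. The part that these differences in marker levels have in the values below was not tested.

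No replication gene passed the test after adjustment. In edgeR's quasi-likelihood test over 13610 genes, 0 of the 46 had an adjusted p-value under 0.05 (background 0% of all genes tested), and the lowest adjusted p-value of any gene was 1. DESeq2 and limma-voom called 0 of the 46 as well, and the paired fit below did too (background 0.022%). Before adjustment, 3 of the 46 had a p-value under 0.05, and the same 3 also met the thresholds of the study, which pair that p-value with a fold change over 1.5 (background 1.68% of all genes tested in either direction). These were Fen1 and Ssbp1, which were lower in AMD3100-treated eSMGs (2 genes or 4.35% of the 46, against 1.28% of all genes tested), and Pole, which was higher (2.17%, against 0.397%). All 3 were also past a log2 fold change of 1 in size, a stricter limit that captions of the study name, while Mcm4 in the paired fit below was not. Fen1 and Ssbp1 are also among the genes that a plot of the study names, picked from these same libraries, so that their count here is not independent evidence. All 46 passed the filter on low counts. Of these, 28 had a lower and 18 a higher fitted level in AMD3100-treated eSMGs, with a median log2 fold change of -0.09, against 0.02 over all genes tested, of which 47.8% were lower. In the fit that paired libraries of the same replicate number (the replicate block), 4 of the 46 passed both thresholds (Mcm4, Pola2, Ssbp1 and Fen1, all lower, where 2.9% of all genes were called lower and 4.39% in either direction), Pole no longer did, and the median was -0.07. The labels do not say whether same-numbered libraries are pairs. With replicates 1 and 2 only, 2 passed (Pola2 and Pole, 4.35% of the 46, against 4.39% of all genes). Leaving out 1 library at a time, the number was 1 without control replicate 1 (Mcm4, against 1.37% of all genes) and without AMD3100 replicate 2 (Ssbp1, against 1.36%), and 5 without control replicate 2 (Mcm4, Pola2, Pole2, Ssbp1 and Fen1, against 1.29%).

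The control and AMD3100 libraries did not overlap for 8 of the 46. These were 6 lower genes (Orc6, Mcm4, Mcm6, Cdc7, Ssbp1 and Fen1, 13% of the 46, against 4.17% of all genes tested) and 2 higher ones (Orc2 and Pole, 4.35%, against 3.28%). The plot of the study names Orc6, Mcm6 and Cdc7 too, so that the count of lower genes is not independent of its choice either. The study reported the genes of that plot, except Tsc1 and Foxo1, as significantly lower by its own test. In edgeR's test here, Orc6, Mcm6 and Cdc7 had unadjusted p-values of 0.176, 0.0954 and 0.0807, above the study's limit of 0.05. The lack of overlap by itself fixes the exact permutation p-value, two-sided, of each of these 8 at 0.1. This is the smallest that 3 libraries a group can give, and it adds no test to the choice of these genes. In same-numbered pairs, 13 of the 46 were lower in AMD3100 in all 3 pairs (28.3%, against 14.6% of all genes tested) and 2 were higher in all 3 (4.35%, against 16%). The summed level of all 46 was 1664, 1772 and 1917 CPM in control and 1661, 1719 and 1626 CPM in AMD3100-treated eSMGs, or 1785 ± 127 and 1669 ± 47.2 CPM (SD, n = 3 each). The groups overlapped, and within pairs the sum was lower in AMD3100 in all 3, by little in replicates 1 and 2.

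**Figure D1:**
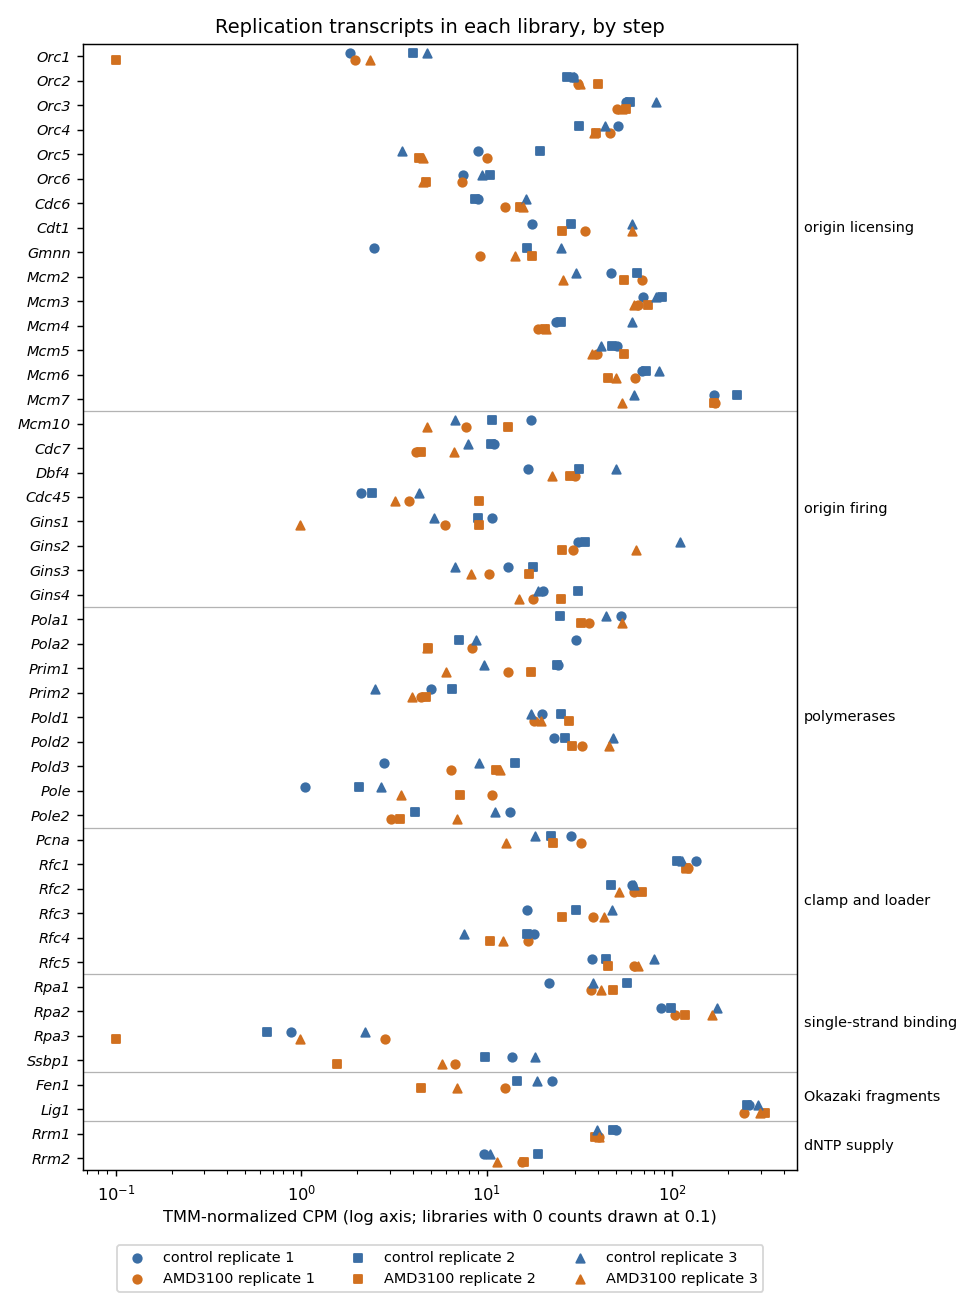
Level of each of the 46 replication transcripts in the 6 libraries, in TMM-normalized CPM on a log axis, grouped by step (blue, control; orange, AMD3100; circle, square and triangle, replicates 1, 2 and 3; libraries with 0 counts are drawn at 0.1). For 38 of the 46 genes the blue and orange points overlap.

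**Figure D2:**
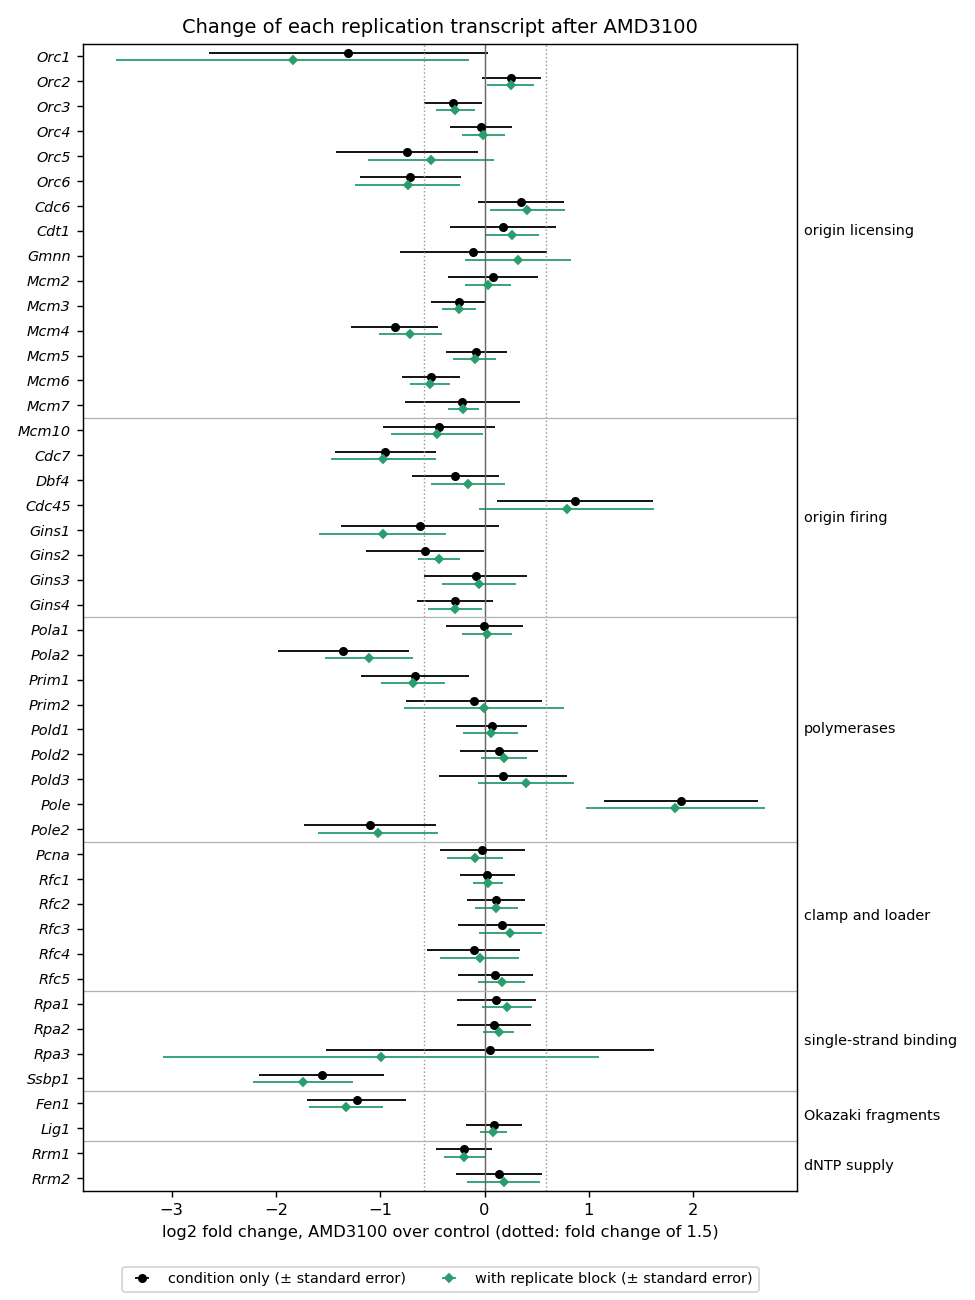
Log2 fold change of AMD3100-treated over control eSMGs for each of the 46 genes, from edgeR with condition only (black) and with the replicate block (green), with bars of 1 standard error and dotted lines at a fold change of 1.5. With condition only, clamp and loader genes lie between -0.11 and 0.16 and the polymerase genes between -1.35 for Pola2 and 1.88 for Pole. With the block, Rfc3 is at 0.25.

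Among the 15 licensing genes, 11 were lower and 4 higher, none past both thresholds. The origin recognition complex marks origins, and no gene for its subunits passed both thresholds. Orc6 was at 7.44, 10.4 and 9.47 CPM in control and at 7.37, 4.70 and 4.54 CPM in AMD3100-treated eSMGs. Its groups were separated only by the small gap between both replicate 1 libraries, and the fitted difference was -0.71 on the log2 scale (SE 0.48, edgeR unadjusted p = 0.176). Orc2 was at 29.2, 27.0 and 29.5 CPM in control and at 31.0, 39.7 and 31.7 CPM in AMD3100-treated eSMGs. All its AMD3100 libraries were above its control libraries, yet the difference on the log2 scale, 0.26, did not reach its SE of 0.28. Orc1, the subunit whose abundance is known to follow the cell cycle, had the largest fitted difference of this step, -1.30, on few counts (21, 55 and 48 in control, 34, 0 and 19 in AMD3100), and its SE (standard error) of 1.34 was larger. The 0 counts of AMD3100 replicate 2 allow a level of up to 0.277 CPM. Without that library the log2 fold change of Orc1 was -0.72, and that of Mcm4 was -0.88. Without AMD3100 replicate 3, Orc1 was at -1.83. Orc3 and Orc4 ranged from 50.1 to 81.4 CPM and from 31.2 to 51.1 CPM over the 6 libraries, and Orc5 from 3.49 to 19.3 CPM, with overlapping groups. Of these, Orc3 was lower in AMD3100 in all 3 pairs.

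The loading factors and their inhibitor overlapped between the groups. Cdc6 ranged from 8.60 to 16.4 CPM and Cdt1 from 17.4 to 60.9 CPM, the latter with its highest level in replicate 3 of both groups. Gmnn, which encodes geminin, ranged from 2.45 CPM in control replicate 1 to 25.03 CPM in control replicate 3, a 10.2-fold spread within the control group that was the widest of the 46 genes.

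None of the 6 genes of the MCM helicase, whose proteins form 1 ring in equal numbers, passed both thresholds with condition as the only term, and their fitted differences were not tested against each other. Mcm6 was at 69.1, 72.0 and 84.4 CPM in control and at 62.7, 45.1 and 49.98 CPM in AMD3100-treated eSMGs. Every AMD3100 library was below every control library, and the log2 fold change was -0.51 (SE 0.28, edgeR adjusted p = 1, unadjusted p = 0.0954). The paired fit gave -0.52 (edgeR adjusted p = 0.703, unadjusted p = 0.0212), below a fold change of 1.5. Mcm4 was at 23.6, 25.1 and 61.0 CPM in control and at 18.8, 20.6 and 20.9 CPM in AMD3100-treated eSMGs. The groups were separated, but control replicate 3 alone stood far above the rest, and the log2 fold change of -0.86 (SE 0.42, edgeR unadjusted p = 0.0711) was -0.27 without that library. Mcm4 passed both thresholds with the replicate block (-0.71, edgeR adjusted p = 0.730, unadjusted p = 0.0424), without control replicate 1 (-1.11) and without control replicate 2 (-1.08).

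Mcm3 was lower in all 3 pairs, at 69.8, 87.8 and 81.8 CPM in control and at 65.1, 74.0 and 62.4 CPM in AMD3100-treated eSMGs. This was a difference of -0.25 on the log2 scale, within its SE of 0.26. Mcm2 was at 46.9, 64.5 and 30.4 CPM in control and at 69.1, 55.1 and 25.7 CPM in AMD3100-treated eSMGs. Its groups overlapped fully, and its log2 fold change of 0.08 turned to -0.23 without AMD3100 replicate 1 and to -0.16 without control replicate 3. Mcm5 was at 50.3, 47.4 and 41.1 CPM in control and at 39.5, 55.1 and 36.8 CPM in AMD3100-treated eSMGs (log2 fold change -0.08, SE 0.29). Mcm7 was at 167, 224 and 62.4 CPM in control and at 170, 168 and 53.7 CPM in AMD3100-treated eSMGs. Its difference between replicate 3 and the other replicates, present in both groups, was much larger than that between the groups (log2 fold change -0.21, SE 0.55). Of the 50-base reads simulated from the 3′ end of Mcm7, 36.4% were shared with other places, and Cops6 lies on the opposite strand there.

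**Figure D3:**
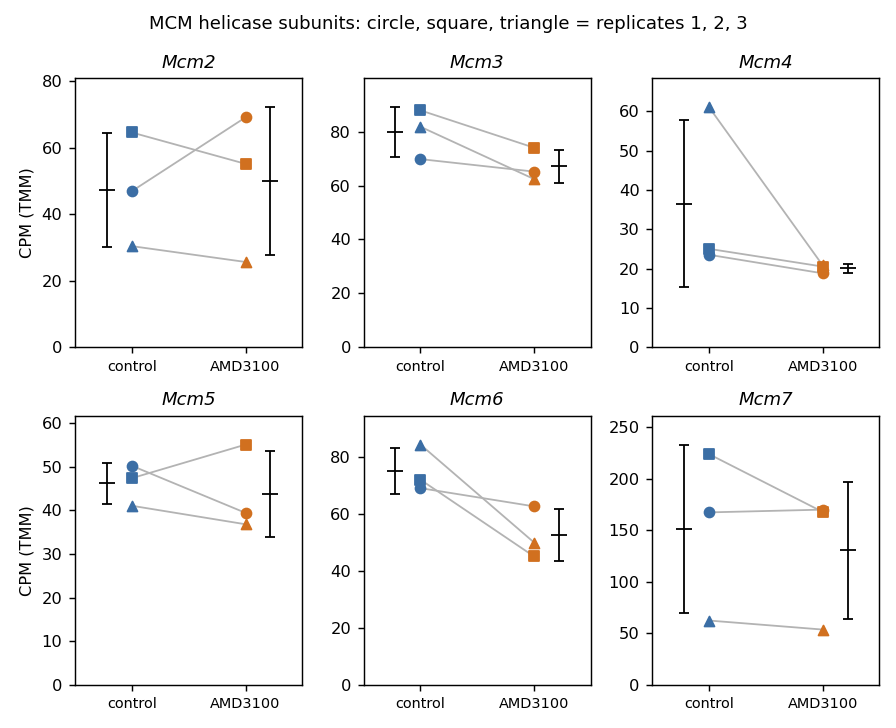
TMM-normalized CPM of the 6 MCM helicase genes in each library, with grey lines joining libraries of the same replicate number and black bars for the mean ± SD of each group (n = 3). Mcm4 and Mcm6 are lower in every AMD3100 library than in every control library, with control replicate 3 of Mcm4 at 61.0 CPM, and Mcm7 is at 62.4 and 53.7 CPM in both replicate 3 libraries.

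Origin firing had the most one-sided counts of the larger steps, with 7 of 8 genes lower, although none passed both thresholds. Cdc7, the kinase that activates the loaded helicase, was at 10.9, 10.5 and 7.88 CPM in control and at 4.15, 4.42 and 6.63 CPM in AMD3100-treated eSMGs. The AMD3100 libraries were each under the lowest control library, with a log2 fold change of -0.95 (SE 0.48, edgeR adjusted p = 1, unadjusted p = 0.0807) that lay between -1.20 and -0.82 with each library left out. Dbf4, which encodes the activating subunit of this kinase, ranged from 16.7 to 49.8 CPM with overlapping groups. Of the GINS complex, Gins2 and Gins4 were lower in all 3 pairs. Gins2 was at 31.1, 33.9 and 111 CPM in control and at 29.0, 25.5 and 63.9 CPM in AMD3100-treated eSMGs, so that the gap between replicate 3 and the other libraries exceeded that between the groups. Gins1 ranged from 0.982 to 10.7 CPM, Gins3 from 6.78 to 17.8 CPM and Gins4 from 14.9 to 31.0 CPM. Mcm10, a factor that helps to start the helicase, ranged from 4.79 to 17.2 CPM. Cdc45, the helicase cofactor and the one gene of this step that was higher, ranged from 2.10 to 9.03 CPM, and its groups overlapped. The summed level of the 8 genes was 160 ± 45.6 CPM in control and 122 ± 11.6 CPM in AMD3100-treated eSMGs (SD, n = 3 each), with overlapping groups.

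The 9 polymerase and primase genes held the largest positive fitted difference of the 46, that of Pole, and a large negative one, that of Pola2. Pole encodes the catalytic subunit of polymerase epsilon, which copies the leading strand. It was at 1.05, 2.04 and 2.69 CPM in control and at 10.7, 7.19 and 3.44 CPM in AMD3100-treated eSMGs. The groups did not overlap, but AMD3100 replicate 3 was close to the control libraries and the counts were few (12, 28 and 27 in control, 186, 78 and 28 in AMD3100). The log2 fold change was 1.88 (SE 0.74, edgeR adjusted p = 1, unadjusted p = 0.0319). It no longer passed both thresholds with the replicate block (1.83, edgeR adjusted p = 0.766, unadjusted p = 0.0612), without control replicate 1 (1.58), without control replicate 2 (1.92), without AMD3100 replicate 1 (1.46) or without AMD3100 replicate 2 (1.88). Pole2, the second subunit of the same enzyme, was at 13.3, 4.08 and 11.1 CPM in control and at 3.05, 3.41 and 6.88 CPM in AMD3100-treated eSMGs, lower in all 3 pairs with overlapping groups.

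Pola2, the regulatory subunit of polymerase alpha, was at 30.2, 7.07 and 8.78 CPM in control and at 8.35, 4.79 and 4.79 CPM in AMD3100-treated eSMGs. Control replicate 1 stood above all other libraries, and the log2 fold change of -1.35 (SE 0.63, edgeR adjusted p = 1, unadjusted p = 0.0597) was -0.41 without it. Pola2 passed both thresholds with DESeq2 (-1.36), without the filter on low counts (-1.35), with replicates 1 and 2 only (-1.50), with the replicate block (-1.11, edgeR adjusted p = 0.703, unadjusted p = 0.0281), and without control replicate 2 (-1.70) or control replicate 3 (-1.63). Pola1, the catalytic subunit of the same enzyme, was at 52.7, 24.8 and 44.1 CPM in control and at 35.7, 32.2 and 53.4 CPM in AMD3100-treated eSMGs, with no separation of the groups. The primase genes Prim1 and Prim2 ranged from 6.02 to 24.2 CPM and from 2.49 to 6.48 CPM, and Prim1 was lower in all 3 pairs. The polymerase delta genes Pold1, Pold2 and Pold3 ranged from 17.3 to 27.7, from 23.0 to 47.8 and from 2.80 to 14.1 CPM, each with overlapping groups and higher in AMD3100 in 2 of the 3 pairs.

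The 6 genes of the clamp and its loader had fitted log2 fold changes between -0.11 and 0.16, and up to 0.25 for Rfc3 with the replicate block. Pcna, the sliding clamp that tethers polymerases to DNA and a widely used proliferation marker, was at 28.4, 22.2 and 18.1 CPM in control and at 32.1, 22.9 and 12.6 CPM in AMD3100-treated eSMGs. The AMD3100 libraries included both the highest and the lowest level, with a fitted difference of -0.02 (SE 0.41), although 45.5% of its simulated 3′ reads had another place in the genome. The 5 loader genes Rfc1 to Rfc5 had overlapping groups. Rfc1, the large subunit, was at 135, 106 and 112 CPM in control and at 122, 119 and 118 CPM in AMD3100-treated eSMGs, and Rfc3 had the largest fitted difference of this step, 0.16 (SE 0.42). Rfc3 was at 16.5, 30.4 and 47.3 CPM in control and at 37.4, 25.5 and 42.6 CPM in AMD3100-treated eSMGs, and its value was -0.15 without control replicate 1 and -0.01 without AMD3100 replicate 3. For Rfc5, 54.5% of the simulated reads were shared with other places. The summed level of the 6 genes was 296 ± 30.8 CPM in control and 309 ± 21.4 CPM in AMD3100-treated eSMGs (SD, n = 3 each).

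Among the 4 single-strand binding genes, Ssbp1 alone passed both thresholds, and whether it differed from the other 3 was not tested. Ssbp1, on chromosome 6 from 40471414 to 40481823 (GRCm38.p6), encodes the protein that coats single-stranded mitochondrial DNA and thus acts on another genome than the other genes of the list. It was at 13.7, 9.76 and 18.2 CPM in control and at 6.74, 1.57 and 5.77 CPM in AMD3100-treated eSMGs (157, 134 and 183 counts against 117, 17 and 47). No AMD3100 library reached the lowest control level, with the lowest level in AMD3100 replicate 2. The log2 fold change was -1.56 (SE 0.60, edgeR adjusted p = 1, unadjusted p = 0.0293) and, with the replicate block, -1.74 (edgeR adjusted p = 0.483, unadjusted p = 0.00521). Ssbp1 did not pass both thresholds without control replicate 1 (-1.58, edgeR unadjusted p = 0.0575), without control replicate 3 (-1.31) or with replicates 1 and 2 only (-1.49). None of the simulated reads from its 3′ end matched elsewhere, and no other gene of GENCODE vM1 overlapped that end. The 3 genes of the nuclear complex RPA, which coats single strands at the fork, overlapped between the groups. Rpa1 ranged from 21.6 to 57.2 CPM and Rpa2 from 86.9 to 175 CPM, and Rpa3 had between 0 and 49 counts per library.

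Of the 2 genes of Okazaki fragment processing, Fen1 passed both thresholds, and whether it differed from Lig1 was not tested. Fen1, on chromosome 19 from 10199132 to 10204393, encodes the nuclease that trims the flap of each fragment. It was at 22.6, 14.6 and 18.7 CPM in control and at 12.5, 4.42 and 6.88 CPM in AMD3100-treated eSMGs. Every AMD3100 library lay below the control libraries, and within each group replicate 2 was lowest and replicate 1 highest. The log2 fold change was -1.22 (SE 0.47, edgeR adjusted p = 1, unadjusted p = 0.0296) and, with the replicate block, -1.33 (edgeR adjusted p = 0.473, unadjusted p = 0.00463). It no longer passed both thresholds without control replicate 1 (-1.07), control replicate 3 (-1.21), AMD3100 replicate 2 (-0.93) or AMD3100 replicate 3 (-1.14), or with replicates 1 and 2 only (-1.13), and its direction was the same in each. The predicted gene Gm10143 lies on the strand opposite the 3′ end of Fen1, and whether reads were counted by strand is not given in the sources used here. Lig1, the ligase that seals the fragments, was at 259, 253 and 290 CPM in control and at 242, 314 and 299 CPM in AMD3100-treated eSMGs, with overlapping groups.

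**Figure D4:**
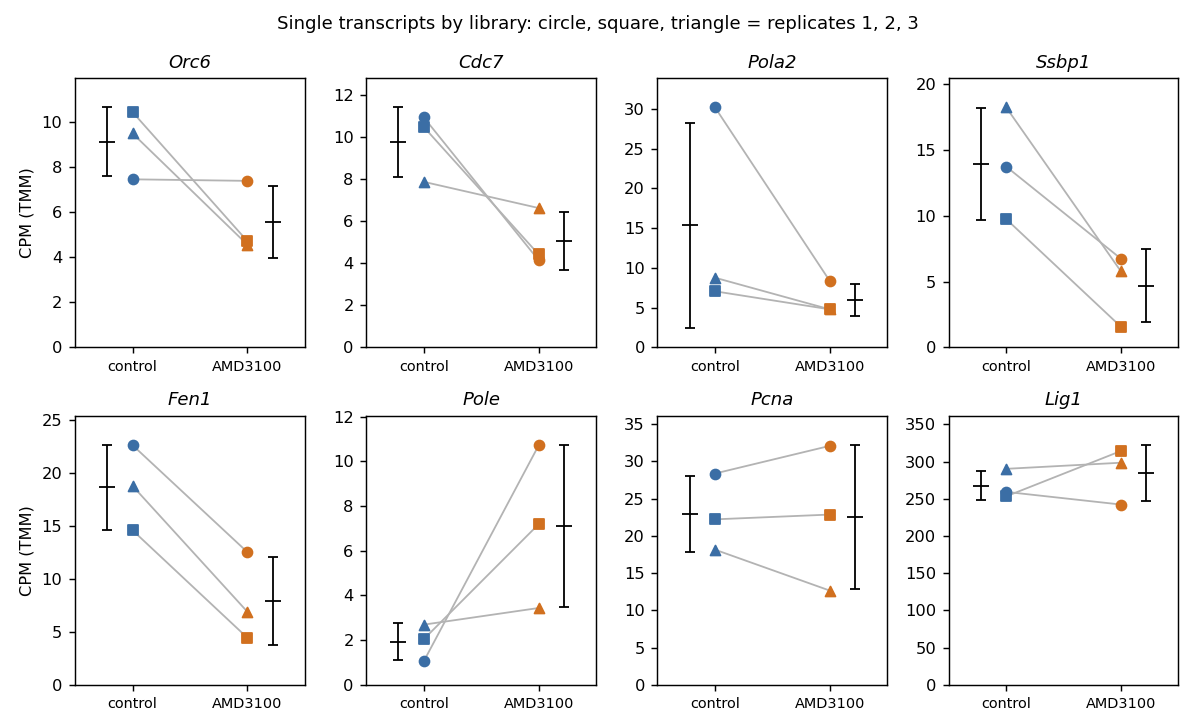
TMM-normalized CPM of 8 replication genes in each library, with grey lines joining libraries of the same replicate number and black bars for the mean ± SD of each group (n = 3). Orc6, Cdc7, Ssbp1 and Fen1 are lower in every pair without overlap, Orc6 by little in replicate 1. Pola2 has 1 high control library at 30.2 CPM, Pole is higher in AMD3100, and Pcna and Lig1 overlap.

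Ribonucleotide reductase, which makes deoxynucleotides, overlapped between the groups. Rrm1, the large subunit, was at 49.8, 47.9 and 39.3 CPM in control and at 40.2, 38.5 and 40.4 CPM in AMD3100-treated eSMGs (log2 fold change -0.20, SE 0.27). Rrm2, the small subunit, which is known to peak in S phase, was at 9.72, 18.8 and 10.5 CPM in control and at 15.6, 15.9 and 11.4 CPM in AMD3100-treated eSMGs (log2 fold change 0.14, SE 0.41), and was at -0.04 without control replicate 1.

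Genes of the same pathway outside the 46 were read from lists of further fork and origin factors, other enzymes of deoxynucleotide supply and factors of mitochondrial DNA replication. Of the 51 listed genes in the files, 49 were tested and 0 met both thresholds without the block. Among 31 fork and origin factors tested, 19 were higher and 12 lower. Among 10 genes of deoxynucleotide supply, 7 were lower and 3 higher, and among 8 genes of mitochondrial DNA replication, 6 were higher and 2 lower. With the replicate block, 2 of the 49 passed both thresholds, both lower, where 2.9% of all genes tested were called lower, so that the count lies near the background. Tyms, the enzyme that makes thymidylate, was at 24.2, 36.0 and 36.7 CPM in control and at 23.9, 9.86 and 20.5 CPM in AMD3100-treated eSMGs (log2 fold change with the block -0.89, edgeR adjusted p = 0.722, unadjusted p = 0.0319). Tfam, which packages mitochondrial DNA and starts its transcription, was at 39.4, 41.4 and 29.7 CPM in control and at 29.6, 22.7 and 16.2 CPM in AMD3100-treated eSMGs (-0.71 with the block, edgeR adjusted p = 0.634, unadjusted p = 0.0133). Without the block the log2 fold changes of Tyms and Tfam were -0.83 and -0.69. The groups did not overlap for 8 of the 49 (background 7.44% of all genes tested, 4.17% lower and 3.28% higher). These were Wdhd1, Dscc1, Tyms, Dut, Dtymk and Tfam, lower in AMD3100, and Peo1 and Top1mt, both of mitochondrial DNA replication, higher (0.59 each). Dscc1 rested on few counts (51, 27 and 21 in control, 25, 0 and 2 in AMD3100). For Wdhd1 the groups were separated only by the small gap between both replicate 3 libraries, 16.65 CPM in control and 16.46 CPM in AMD3100. Tfam passed both thresholds also without AMD3100 replicate 1 (-0.92).

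The spread between replicates was wide for many of the 46 genes. Within the control group, the highest library was a median of 2.09-fold above the lowest, and within the AMD3100 group, leaving out genes with a library at 0, a median of 1.61-fold. For 10 genes, replicate 3 was the lowest library of both groups, among them Mcm2, Mcm5, Mcm7, Prim1 and Pcna (21.7% of the 46, against 25.5% of all genes tested), and for 9 it was the highest of both, among them Cdt1, Cdc6, Mcm4, Gins2 and Rpa2 (19.6%, against 27.9%). By step, the summed level of the licensing genes was 610, 726 and 635 CPM in control and 627, 620 and 474 CPM in AMD3100-treated eSMGs, and that of the single-strand binding genes was 123, 166 and 233 CPM against 150, 167 and 211 CPM. In each of the steps the groups overlapped.

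**Figure D5:**
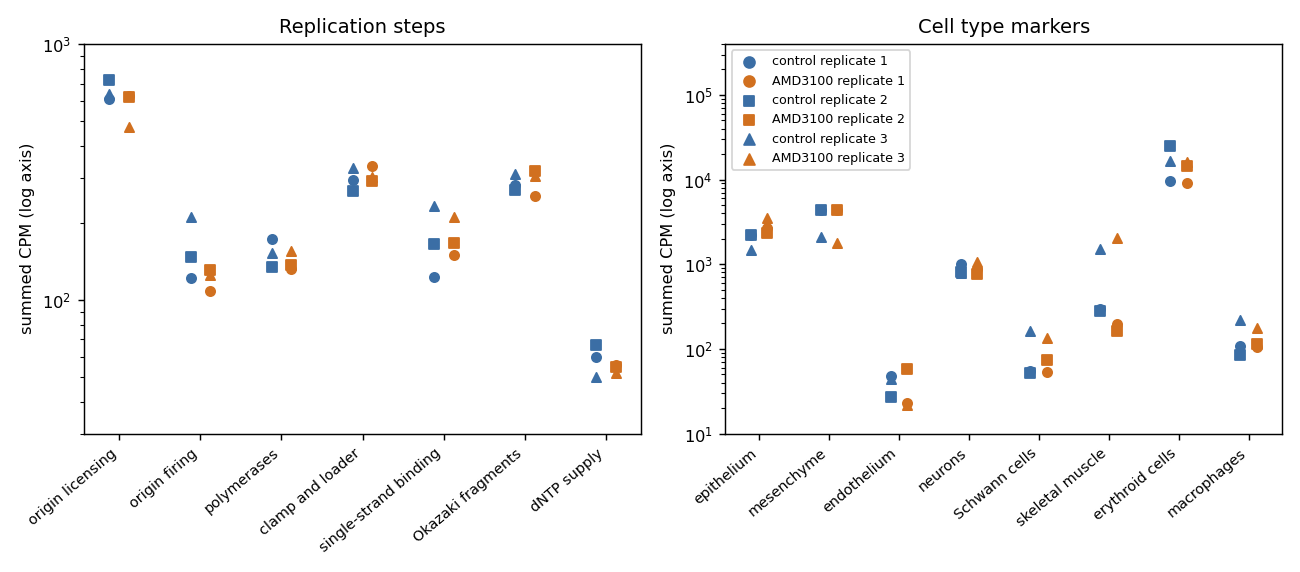
Summed TMM-normalized CPM, on log axes, of the genes of each replication step (left) and of each list of cell type markers (right) in the 6 libraries (blue, control; orange, AMD3100; circle, square and triangle, replicates 1, 2 and 3). The groups overlap in every replication step, while replicate 3 of both groups is higher in skeletal muscle and lower in mesenchymal markers. The epithelial sum, much of it Krt15, is higher in each AMD3100 library.

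The list did not use the sequence before the start sites of its genes, which was searched for letters of known binding sites. E2F transcription factors, which drive genes of S phase entry, are known to bind a short site that was searched on both strands as TTTCCCGC, TTTCGCGC, TTTGCCGC or TTTGGCGC in RefSeq promoters of GRCm38.p6 (250 bases before to 50 after each start). Promoters were found for 38 of the 46 genes and were not found for Gmnn, Mcm4, Gins1, Gins2, Gins4, Prim2, Pole and Rfc2. At least 1 match was present in 31.9% of the 47 promoters of these genes, against 2.26% of all 32851 promoters of the same length, and 15 of the 38 genes had one. The letters CCAAT, the core of the NF-Y site, were in 53.2% of the 47 promoters, against 37.4% of all, and TTTGAA, the core of the cell cycle genes homology region, in 17% against 17.9%. Of the 15 genes with E2F letters, 9 were lower and 6 higher in AMD3100-treated eSMGs, and of the 23 without, 13 were lower and 10 higher. A match describes letters in the window and not a bound site. The 5 genes with E2F letters before the start and outside the gene itself are shown because they place these letters next to the values above, with the matches in capitals, on the strand of each gene. They lie at chr4:34614964-34614999 (minus strand) for Orc3, chr8:75109340-75109383 (plus) for Mcm5, chr1:128359729-128359831 (minus) for Mcm6, chr8:95633502-95633541 (plus) for Gins3 and chr5:151651209-151651234 (minus) for Rfc3.
Orc3: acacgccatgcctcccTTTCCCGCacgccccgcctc
Mcm5: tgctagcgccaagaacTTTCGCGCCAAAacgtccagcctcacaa
Mcm6: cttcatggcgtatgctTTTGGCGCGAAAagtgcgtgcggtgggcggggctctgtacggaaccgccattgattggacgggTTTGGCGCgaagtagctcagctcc
Gins3: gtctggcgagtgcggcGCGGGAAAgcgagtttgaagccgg
Rfc3: aagtgacgtcgcacgcTTTCGCGCtc
In Mcm5 and in the first site of Mcm6, a match on either strand overlaps the other, so that the letters read as E2F sites in both directions. Mcm6 holds 3 matches in all and was lower in each AMD3100 library, and Mcm5, with 2 in this stretch, overlapped between the groups. Whether the number of matches goes with the change was not tested.

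The stretches before Fen1 and Ssbp1 are shown because these were the genes past both thresholds in the lower direction. They are chr19:10204394-10204643 (minus strand) for Fen1, which has a second annotated start inside its gene, and chr6:40471218-40471413 (plus strand) for Ssbp1. Capitals mark matches to any of the E2F, CCAAT and TTTGAA letters on either strand.
Fen1: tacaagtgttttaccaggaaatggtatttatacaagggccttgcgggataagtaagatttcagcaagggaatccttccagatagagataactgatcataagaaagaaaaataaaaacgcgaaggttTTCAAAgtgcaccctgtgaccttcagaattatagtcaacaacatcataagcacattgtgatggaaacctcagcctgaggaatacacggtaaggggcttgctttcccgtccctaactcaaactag
Ssbp1: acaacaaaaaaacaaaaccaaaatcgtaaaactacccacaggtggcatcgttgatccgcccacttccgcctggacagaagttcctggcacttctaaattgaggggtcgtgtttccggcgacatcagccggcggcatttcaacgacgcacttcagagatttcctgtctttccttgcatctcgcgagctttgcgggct
The stretch of Fen1 holds 1 match, to TTTGAA on the opposite strand, and that of Ssbp1 holds none of the letters searched.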

How the data were processed

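The authors made 3′ mRNA libraries (50 bp single reads) and deposited read counts per gene symbol, 1 file per library, without normalization. The submitters' processing notes name Bowtie2, edgeR and mm10. The annotation, the counter and its strand setting are not given in the sources used here. Each library listed 23282 lines, and 22 that repeated an earlier line with the same counts were left out. Rn45s took from 16.2% (95% Wilson interval 16.21 to 16.25) to 32.5% (32.52 to 32.57) of the counts, an interval for counting error only.

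Counts were compared with edgeR 4.0.16 in R 4.3.3 (TMM, filterByExpr, glmQLFit, glmQLFTest, Benjamini-Hochberg adjustment over 13610 genes), with condition as the only term. This count test replaced the equal-variance test after quantile normalization of the study's methods. The biological coefficient of variation was 0.579. The fits were tested on simulated data. The replicate numbers were taken as pairs because same-numbered libraries of both groups deviated together from their group means (correlations across genes of 0.284, 0.259 and 0.688 for replicates 1, 2 and 3, on log2(CPM + 1)). Control replicate 2 with AMD3100 replicate 1 had 0.307, so that the check did not tell replicates 1 and 2 apart. Since the deviations within a group cancel out, positive values for replicates 1 and 2 follow in part from the match of replicate 3. The check thus gave no ground to pair replicates 1 and 2 by number.

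The members and lists were chosen with earlier results of these data known. Values in each library and a log2 fold change were given for Mcm2 to Mcm7, Fen1, Ssbp1, Pcna and Rrm2. They were also given for members past both thresholds with or without the replicate block and for members whose groups did not overlap. The gene with the largest change of each step and the listed genes of the pathway past both thresholds were treated likewise. An SE or a p-value was printed for only some of these. Other members were given by their range, and those shown library by library besides (Gins2, Pole2, Pola1, Rfc1 and Lig1), and the other pathway genes named because their groups did not overlap, were chosen after their values were seen. Gene positions and promoters are those of RefSeq on GRCm38.p6, the assembly of mm10. Reads of 50 bases every 25 bases from the last 300 bases of each gene's transcript (GENCODE vM1 on NCBIM37, all 46 matched) were mapped back to that genome (minimap2 2.31-r1302) and counted as shared if a further place came within 1 mismatch of the best score.

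Settings tried besides were DESeq2 1.42.0, limma-voom 3.58.1 on quantile-normalized values, upper quartile scaling, a minimum of 10 counts per library, no filter at all, the replicate block, robust estimation, Rn45s left out, replicates 1 and 2 only, and each library left out. Erbb3, Cdh5, Tek, Tie1, Slc4a1 and Nrcam were among the markers at 0 in at least 1 library. The lists of cell type markers for endothelium, neurons, Schwann cells, erythroid cells and macrophages summed to 39.6 ± 10.9, 867 ± 122, 89.2 ± 62.6, 17060 ± 7613 and 138 ± 72.3 CPM in control and to 34.5 ± 20.5, 898 ± 147, 87.7 ± 43.2, 13310 ± 3718 and 133 ± 38.6 CPM in AMD3100-treated eSMGs (SD, n = 3 each), with overlapping groups. Of the genes tested in these lists, 1, 4, 2, 1 and 4 were higher and 5, 3, 2, 11 and 4 lower, in that order.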

Additional observations from a re-analysis of the deposited data

How the results depend on the processing

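Over all genes, edgeR called 228 at both thresholds, a number that moved to 598 with the replicate block and to 613 with replicates 1 and 2 only. It lay between 163 and 547 with each library left out, at 547 without control replicate 3 and 451 without AMD3100 replicate 3. The number with an adjusted p-value under 0.05 was 0 and moved to 5 with DESeq2 and to 3 with the replicate block. With each library left out it stayed at 0. None of these was among the 46. The number of the 46 past both thresholds was 3, stayed within 2 to 4 under the other settings and lay between 1 and 5 with each library left out. Their median log2 fold change of -0.09 stayed between -0.10 and -0.04 under the other settings and lay between -0.22 and -0.039 with each library left out. Of the other listed pathway genes, 0 passed both thresholds in edgeR's test, 2 did with the replicate block, and between 0 and 1 did with each library left out. Among the genes given library by library with a log2 fold change, Pcna turned to 0.12 with replicates 1 and 2 only. The fits without 1 library gave log2 fold changes from -0.23 to 0.38 for Mcm2, -0.27 to 0.018 for Mcm5, -0.58 to 0.18 for Mcm7, -0.37 to 0.25 for Pcna, -0.15 to 0.59 for Rfc3 and -0.041 to 0.50 for Rrm2. Among the 46 and the other listed pathway genes, the replicate block changed the calls of Mcm4, Pola2, Pole, Tyms and Tfam alone. The causes of these shifts were not tested. Depth limits Orc1 and Rpa3, each with 0 counts in 1 library, Gins1, with 8 counts in AMD3100 replicate 3, and Pole, with 12 counts in control replicate 1. Outside the 46 it also limits Dscc1, with 0 counts in AMD3100 replicate 2.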
